A study of Homo sapiens with 12 samples.

Results

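IOSE80 cells kept with bisphenol A (BPA) at 2500 nM for 28 days were compared with IOSE80 cells kept with 0.1% DMSO for the same time, with 3 libraries of total RNA in each group. IOSE80 is an established line derived from human ovarian surface epithelium, and all groups come from this 1 line. Of the 30574 loci in the files, the 11853 that reached an FPKM of 1 in 2 or more of these 6 libraries were taken as members and tested. FPKM divides a locus's fragment count by its transcript length and by the library's mapped fragments, so that levels of different genes can be set side by side. Of the members, 9364 name exactly 1 protein-coding gene, 611 join several and 1878 name none. The study also had BPA at 0.25 nM (3 libraries) and E2, the usual short name of estradiol (2 libraries analysed here, the third not), both for 28 days. No source used here states the E2 dose. DMSO was the only vehicle group, and no solvent is named for the 3 exposed groups. Whether replicates were separate cultures is not said, so the p-values rest on a spread between samples that may be technical. In bulk RNA a change in the make-up of the culture and a change in RNA per cell cannot be told apart.

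BPA is a building block of polycarbonate plastics and epoxy resins that binds oestrogen receptors weakly and, more tightly, the orphan receptor ESRRG. Ribosomes are assembled in the nucleolus, where ribosomal RNA is transcribed by RNA polymerase I, cut and modified by small nucleolar ribonucleoproteins, and joined with ribosomal proteins by a large set of assembly factors. Growing cells make these factors and the polyamines in larger amounts.

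The read depth behind the 6 libraries is unknown. DMSO replicate 2 stood apart, with a total of 206774 FPKM against 210156 to 212982 in the other 5 libraries and 23696 loci above 0 against 21358 to 21971. It also shared fewer identical values with each of them (5865 to 6138 loci) than they did with each other (7024 to 7485), and without it 54 loci were called in the test described next. Mitochondrial loci took 13.63% to 14.31% of the FPKM in the DMSO libraries and 12.94% to 13.62% in the BPA 2500 nM libraries, so that the groups lay next to each other without overlap, and the part of this difference in the results was not tested. Of 14 ovarian surface markers with a locus, 4 passed the filter, with ALDH1A1 (109 to 121 FPKM in DMSO) and KRT18 (19.8 to 27.0) the highest. WT1 and CDH1, which mark mesothelial and epithelial cells, did not exceed 0.02 FPKM in any library, so the label of ovarian epithelium rests on few of its defining markers. The leukocyte marker PTPRC did not exceed 0.01 FPKM.

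With BPA 2500 nM, 169 of the 11853 loci (1.43%) differed from DMSO in limma at a Benjamini-Hochberg adjusted p under 0.05, and these are the loci called changed here. 52 were higher (0.439% of those tested) and 117 lower (0.987%). Levels were tested as log2(FPKM + 1), a scale that understates the change of low genes, with 1 mean per group over all 11 libraries. Most changes were small, with a median size of 0.35 on that scale (0.18 to 1.24), and 3 of the 169 reached 1. A further 38 loci had a log2 change of at least 1 in size and were not called. The loci called higher stood at a median of 15.9 FPKM in DMSO and those called lower at 5.67, where the median of all tested loci was 5.61. The genomic span of the higher loci had a median of 13176 bases and that of the lower loci 26017, against 26563 for all. The 3 libraries of each group did not overlap at 3197 loci (27.0%), all 169 called ones among them. Of the 3197, 1152 were higher with BPA 2500 nM (9.72% of all tested) and 2045 lower (17.3%). An unadjusted p under 0.05 was found at 2095 loci (17.7%). With libraries rescaled to a common median ratio, the calls split into 84 higher and 90 lower, a more even share than the 52 and 117, while the median log2 change of all loci moved only from -0.026 to -0.001.

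**Figure D1:**
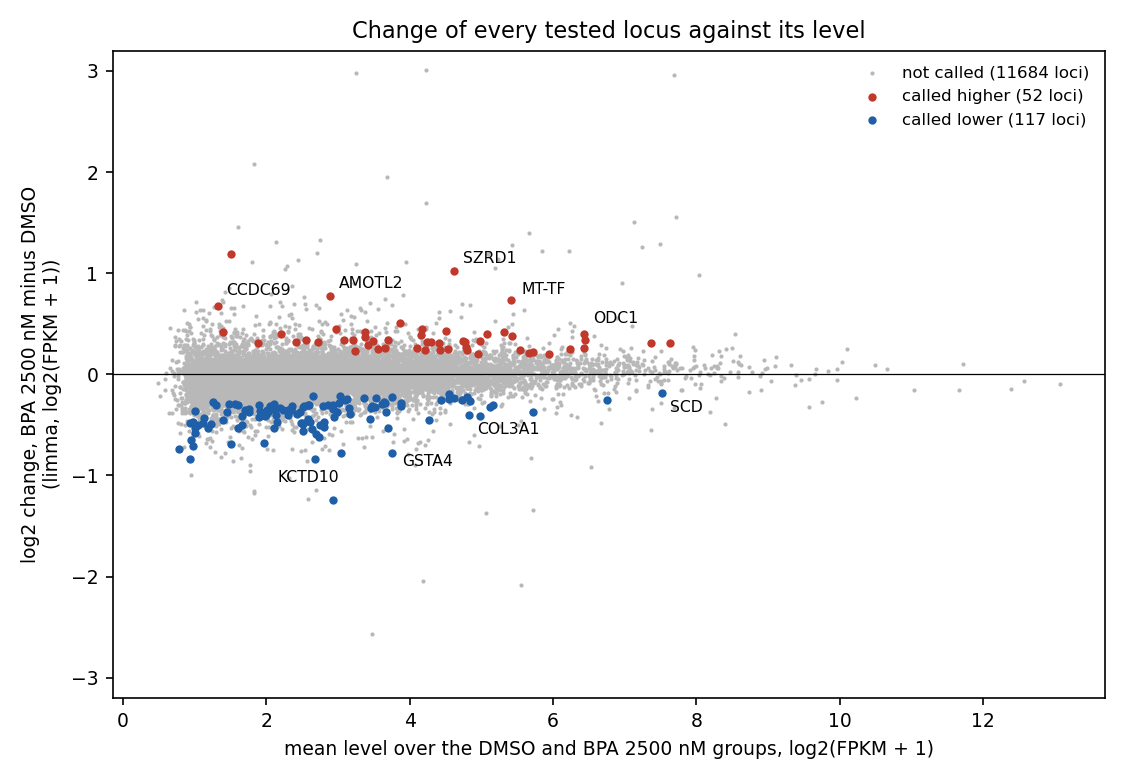
Log2 change (BPA 2500 nM minus DMSO, vertical) of the 11853 tested loci against their mean level (log2(FPKM + 1), horizontal), with called loci in red (52 higher) and blue (117 lower) and the rest in grey. Most called loci lie within 1 of the zero line, while 38 uncalled loci with a change of at least 1 lie further out.

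The count of calls depended on which libraries entered the fit. It dropped to 38, 54 and 83 when DMSO replicate 1, 2 or 3 was taken out. Leaving out BPA 2500 nM replicate 1, 2 or 3 gave 32, 34 and 43. The BPA 0.25 nM libraries add only to the estimate of spread, and dropping replicate 1, 2 or 3 of them gave 85, 80 and 78. With no E2 libraries it was 284, and with only the DMSO and BPA 2500 nM libraries it was 13. Dropping either E2 library leaves the other with no spread to add. Those fits therefore act as the fit with no E2 libraries and are no separate check. No called locus changed direction in any of 19 alternative fits. The groups did not overlap at any of the 169, so dropping 1 library could not have turned a direction. In all 11 fits without 1 library 20 loci stayed called, and the other 149 lost their call in at least 1 of them. The 8 higher ones were SZRD1, AMOTL2, MT-TF, CCDC69, NOP16, ODC1, ID2 and KIF1C. The 12 lower ones were KCTD10, TXNIP, CCNG2, LINC02438, CAMK2N1, CALCRL, MGAT3, MLLT11, GBP2, COL3A1, SLC17A5 and PNRC1.

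**Figure D2:**
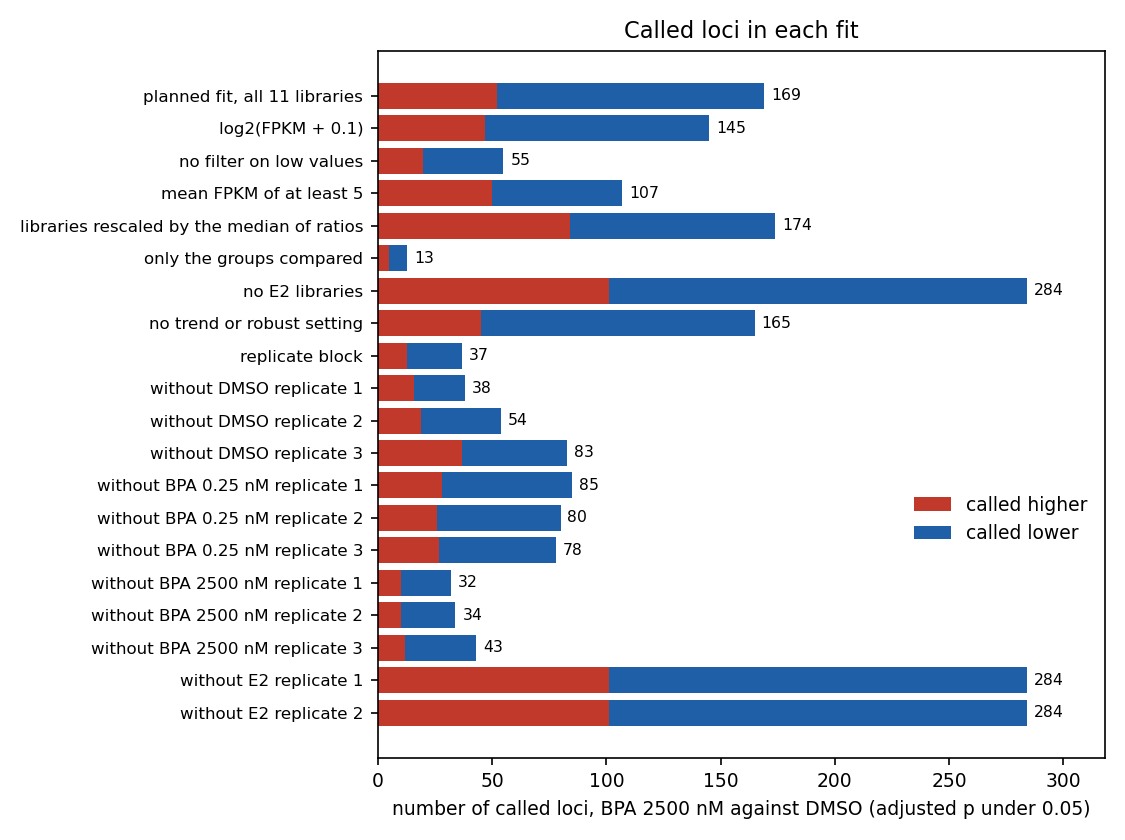
Number of loci called higher (red) and lower (blue) with BPA 2500 nM against DMSO in the planned fit of all 11 libraries and in 19 alternative fits, 1 bar per fit. The planned fit gave 169 calls, the fit of only the 6 libraries compared gave 13, and the fits without E2 gave 284.

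Of the 64 gene lists, ribosome biogenesis had the most members called higher, and it was also the largest. Of its 118 tested genes 12 rose and 0 fell, beside 0.439% of all loci called higher. Some shorter lists had a like share, among them MAPK feedback and the YAP targets with 2 of 17 tested genes each called higher. The log2 change was positive in 104 of the 118, and their median was 0.14 against -0.026 over all loci. The median lay between 0.117 and 0.165 in the 19 alternative fits. Fits that kept the DMSO and BPA 2500 nM values, such as those without a BPA 0.25 nM or E2 library, could not move it. The number of called members went from 12 to 0 with only the groups compared and to 1 without BPA 2500 nM replicate 1 or 2. Dropping DMSO replicate 1, 2 or 3 left 2, 3 and 4 called members, dropping BPA 2500 nM replicate 3 left 4, and dropping BPA 0.25 nM replicate 1, 2 or 3 left 6, 6 and 7. Dropping either E2 library gave 19. The groups did not overlap at 59 members that were higher (9.72% of all loci) and 3 that were lower (17.3%). The shift was not particular to BPA 2500 nM. Against the same DMSO libraries the list median was 0.084 with BPA 0.25 nM and 0.182 with E2.

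The called members belong to several steps of ribosome assembly. NOP56, a core protein of the box C/D particles that methylate ribosomal RNA, stood at 31.8, 32.3 and 35.4 FPKM in the DMSO libraries and at 44.4, 45.6 and 43.8 with BPA 2500 nM. All 3 treated libraries lay above the highest control, and the log2 change was 0.42 ± 0.054 (SE, adjusted p = 0.0111). NOP16, a nucleolar protein of the large subunit, went from 13.9, 13.7 and 15.3 to 19.4, 20.5 and 19.7 FPKM (0.45 ± 0.055, adjusted p = 0.00933). RRP9, which belongs to the U3 particle that cuts the small subunit precursor, stood at 17.9, 17.1 and 20.1 in DMSO and 25.6, 23.8 and 25.7 with BPA (0.43 ± 0.064, adjusted p = 0.0198). NOL6, of the small subunit processome, went from 7.76, 8.24 and 7.57 to 11.4, 10.8 and 10.5 FPKM (0.42 ± 0.060, adjusted p = 0.0153). None of these 4 genes had a treated library within the range of the controls, which held for all 169 called loci.

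The other 8 called members were smaller in change. URB2, a large subunit factor, stood at 4.16 ± 0.079 FPKM in DMSO and 5.54 ± 0.36 with BPA 2500 nM (SD, n = 3 each), and BYSL, a small subunit factor, at 10.5 ± 0.976 and 13.5 ± 0.365. POLR1C, a subunit shared by RNA polymerases I and III, went from 4.89 ± 0.196 to 6.36 ± 0.222. DKC1, the pseudouridine synthase of box H/ACA particles and a part of telomerase, went from 22.7 ± 0.367 to 28.9 ± 2.71. The helicase gene DDX21, the most abundant of the 12, rose from 68.2 ± 1.79 to 81.1 ± 3.29 FPKM. EBNA1BP2, UTP14A and LYAR also rose, by 0.24, 0.25 and 0.24 on the log2 scale (adjusted p = 0.0239, 0.0413 and 0.0482). Among the small nucleolar RNA host genes, which carry the guides of these particles in their introns, 16 of 18 were positive and 0 were called. SNHG15 stood at 6.73 ± 0.468 against 5.2 ± 0.0529 FPKM (adjusted p = 0.0734).

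The promoters of the higher genes held the E-box CACGTG, a site for basic helix-loop-helix factors such as MYC, MAX and USF1, in a larger share than those of the lower genes. In windows of 250 bases before to 50 after the RefSeq gene start (GRCh38.p14), searched on both strands, it was found in 12 of 40 matched genes called higher and 4 of 80 called lower (5.0%). It was found in 791 of 7519 tested genes with a window (10.5%) and in 7.4% of all 27305 windows. In the tested ribosome biogenesis genes it was in 35 of 100, and in 5 of the 11 called ones with a window. The 12 higher genes were RRP9, NOL6, BYSL, EBNA1BP2, UTP14A, DCTPP1, MCM7, HNRNPM, TELO2, DUSP2, ADI1 and PAK1IP1, and the 4 lower ones CCNG2, TJP3, DHX40 and RAB29. Another 5 motifs were searched. GCGTG, the core of hypoxia and dioxin response elements, was in 27 of 40 higher, 29 of 80 lower and 3987 of 7519 tested genes. Its share, like that of the E-box, was larger in the higher genes than in the lower genes, with the tested genes between. Of the same 40, 80 and 7519 genes, the TEAD element CATTCC was in 5, 8 and 773, and the heat shock pair GAANNTTC in 1, 3 and 319. The forkhead element GTAAACA was in 1, 4 and 173, and the SMAD element GGCGCC in 12, 21 and 2467. A match is a run of letters and not a site shown to be bound. To show where the E-box sits, it is printed in capitals. The 250 bases before the RefSeq start of 5 higher genes and of the lower gene CCNG2 are given 5′ to 3′ on the gene's strand. They lie at chr1:43172571-43172820, minus strand (EBNA1BP2), chrX:129905914-129906163, plus strand (UTP14A), chr16:30429801-30430050, minus strand (DCTPP1), chr7:100101398-100101647, minus strand (MCM7), chr19:8444725-8444974, plus strand (HNRNPM) and chr4:77156957-77157206, plus strand (CCNG2). In DCTPP1, MCM7, HNRNPM and CCNG2 the motif lies in the last 42 bases before the RefSeq start used. In EBNA1BP2 and UTP14A it lies near the far end of the window. That start is not always the upstream end of the locus. The windows of DCTPP1, MCM7 and EBNA1BP2 lie inside loci that reach 30430075, 100101940 and 43250391, and the HNRNPM locus begins at 8444767. In those genes the motif lies inside the locus as annotated in the data and not before it.
EBNA1BP2: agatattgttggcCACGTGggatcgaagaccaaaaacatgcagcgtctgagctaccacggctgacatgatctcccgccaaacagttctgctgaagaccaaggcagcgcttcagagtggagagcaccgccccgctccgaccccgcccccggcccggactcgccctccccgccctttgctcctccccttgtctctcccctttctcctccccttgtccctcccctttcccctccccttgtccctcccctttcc
UTP14A: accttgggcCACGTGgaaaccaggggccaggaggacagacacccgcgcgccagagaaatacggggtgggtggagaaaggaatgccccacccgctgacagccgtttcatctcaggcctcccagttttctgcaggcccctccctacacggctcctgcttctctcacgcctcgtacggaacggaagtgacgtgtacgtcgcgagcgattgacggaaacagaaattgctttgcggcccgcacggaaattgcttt
DCTPP1: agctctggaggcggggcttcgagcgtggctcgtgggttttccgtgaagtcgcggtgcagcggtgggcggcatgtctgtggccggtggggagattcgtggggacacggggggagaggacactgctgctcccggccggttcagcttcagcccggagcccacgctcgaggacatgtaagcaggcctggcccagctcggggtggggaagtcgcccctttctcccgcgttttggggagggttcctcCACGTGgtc
MCM7: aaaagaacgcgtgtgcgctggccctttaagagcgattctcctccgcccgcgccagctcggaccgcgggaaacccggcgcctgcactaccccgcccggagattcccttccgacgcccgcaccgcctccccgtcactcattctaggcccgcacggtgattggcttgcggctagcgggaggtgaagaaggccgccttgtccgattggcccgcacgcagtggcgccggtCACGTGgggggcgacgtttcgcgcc
HNRNPM: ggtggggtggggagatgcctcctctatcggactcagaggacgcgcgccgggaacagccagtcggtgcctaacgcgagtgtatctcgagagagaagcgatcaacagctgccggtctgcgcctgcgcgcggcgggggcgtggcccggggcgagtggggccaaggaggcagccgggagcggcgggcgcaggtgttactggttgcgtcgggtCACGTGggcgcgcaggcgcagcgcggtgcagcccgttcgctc
CCNG2: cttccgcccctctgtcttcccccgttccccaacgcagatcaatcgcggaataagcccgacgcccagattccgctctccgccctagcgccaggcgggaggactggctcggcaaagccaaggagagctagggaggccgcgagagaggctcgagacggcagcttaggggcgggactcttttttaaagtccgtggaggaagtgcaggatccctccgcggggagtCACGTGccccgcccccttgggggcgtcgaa

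In polyamine metabolism 1 gene rose and 1 fell. ODC1, the rate-limiting enzyme of polyamine synthesis (chr2:10439968-10448327, minus strand, GRCh38), stood at 72.9, 72.8 and 75.8 FPKM in DMSO and 98.1, 99.3 and 95.9 with BPA 2500 nM. The groups were far apart beside their spread, and the log2 change was 0.40 ± 0.034 (adjusted p = 0.00218). SAT1, which acetylates polyamines for breakdown and export, fell from 12.9, 13.7 and 14.0 to 11.2, 11.4 and 11.8 FPKM (-0.22 ± 0.045, adjusted p = 0.0477). SAT1 lost its call when any DMSO or BPA library was dropped, and with the libraries rescaled (adjusted p = 0.0724). ODC1 kept its call in all of these fits. Of 10 tested polyamine genes these 2 were called. SRM, which makes spermidine, stood at 28.9 ± 1.19 against 23.6 ± 2.56 (adjusted p = 0.144), and DOHH, which completes the hypusine of EIF5A from spermidine, at 9.99 ± 0.452 against 7.93 ± 0.647 (adjusted p = 0.0736).

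The methionine and folate list likewise had 1 gene called in each direction. MTR, the methionine synthase that links the folate and methionine cycles, fell from 7.12, 7.63 and 6.40 to 4.23, 4.43 and 4.01 FPKM, 40.1% below the control mean (log2 change -0.62 ± 0.087, adjusted p = 0.0153). ADI1, an enzyme of the salvage of methionine from the by-product of polyamine synthesis, rose from 15.9 ± 0.552 to 19.0 ± 0.579 (adjusted p = 0.0454). Of 25 tested genes of the list no other was called, with AHCY at 58.5 ± 0.62 against 51.4 ± 2.86 and CTH at 1.61 ± 0.177 against 2.36 ± 0.0961 FPKM.

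Genes of growth signalling moved in both directions. AMOTL2, an adaptor that holds YAP in the cytoplasm and is itself a YAP target (chr3:134351852-134374560, minus strand), stood at 4.34, 4.56 and 4.59 FPKM in DMSO and 8.65, 8.13 and 8.34 with BPA 2500 nM. The treated mean was 1.86 times the control mean, with a log2 change of 0.77 ± 0.076 (adjusted p = 0.00282). CCN1, a secreted matrix protein and YAP target, rose from 26.7, 26.8 and 27.3 to 33.1, 35.8 and 33.6 (0.33 ± 0.046, adjusted p = 0.0147). MYOF, a membrane repair protein of the same list, fell from 22.5 ± 0.372 to 18.8 ± 0.359 (adjusted p = 0.0293). CCN2 stood at 14.9 ± 0.32 against 11.8 ± 0.916 and AXL at 0.687 ± 0.0551 against 1.15 ± 0.136, both short of the threshold (adjusted p = 0.0644 and 0.0547). With 9 of 17 members positive and a median of 0.012, the YAP target list had no common direction.

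ID2, a dominant-negative helix-loop-helix protein induced by bone morphogenetic proteins, rose from 37.6, 36.2 and 35.9 to 49.5, 46.9 and 46.7 FPKM (0.38 ± 0.042, adjusted p = 0.00568). Its relatives had like differences without passing: ID1 stood at 107 ± 1.84 against 81.9 ± 6.7 (adjusted p = 0.113) and ID3 at 271 ± 3.79 against 225 ± 11.6 (adjusted p = 0.131). Of 15 tested targets of TGF-beta and BMP 11 were positive and ID2 alone was called. The MAPK feedback genes DUSP2, a phosphatase of MAP kinases, and SPRY2, an inhibitor of receptor tyrosine kinase signalling, rose by 0.44 ± 0.083 and 0.27 ± 0.045 (adjusted p = 0.0413 and 0.0293), with 10 of 17 members positive and 0.439% of all loci called higher. Neither was called when any DMSO or BPA 2500 nM library or BPA 0.25 nM replicate 2 was dropped, with the replicate block, with no filter, or in the fit of the 6 libraries alone, and 1 was called without BPA 0.25 nM replicate 1 or 3. The kinase gene PLK2, a p53 target, rose from 6.51 ± 0.316 to 8.47 ± 0.118 FPKM, while 15 of the 24 p53 targets were negative and no other was called.

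Further genes with the largest rises belonged to no common list. SZRD1, which encodes a small SUZ domain protein, stood at 14.1, 18.8 and 13.3 FPKM in DMSO and 30.6, 31.5 and 33.6 with BPA 2500 nM, and CCDC69, a coiled-coil protein of the spindle midzone, at 1.04, 0.95 and 0.81 against 2.17, 2.21 and 1.89. Both genes were about as high in the other treated groups: SZRD1 at 30.04 to 33.7 with BPA 0.25 nM and 34.8 and 30.7 with E2, CCDC69 at 2.19 to 2.32 and 2.23 and 2.15. DCTPP1, which removes dCTP from the nucleotide pool, rose by 0.40 ± 0.058 and the transcription factor gene GATA2 by 0.39 ± 0.067. TELO2, a chaperone partner of large kinases such as mTOR and ATM, rose from 8.08 ± 0.255 to 10.8 ± 0.854 FPKM. The vitamin transporter gene SLC5A6, the mitochondrial cyclophilin gene PPIF, the tRNA synthetase scaffold gene AIMP2, the kinesin gene KIF1C and the neurofilament gene NEFH rose by 0.31 to 0.33. The locus named TNN lies on the strand opposite to that gene and is uncertain. Outside the naming rule, chosen after their values were seen, the mitochondrial tRNA loci MT-TF and MT-TV rose by 0.74 ± 0.058 and 0.31 ± 0.053. SNORD12C, a small nucleolar RNA, stood at 0.43, 1.49 and 0.35 FPKM in DMSO against 3.76, 2.77 and 2.18 with BPA 2500 nM. These loci are very short (chrMT:577-647, chrMT:1602-1670 and chr20:49278940-49279028), so their FPKM is uncertain. Whether it comes from longer RNA that overlaps them was not tested.

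**Figure D3:**
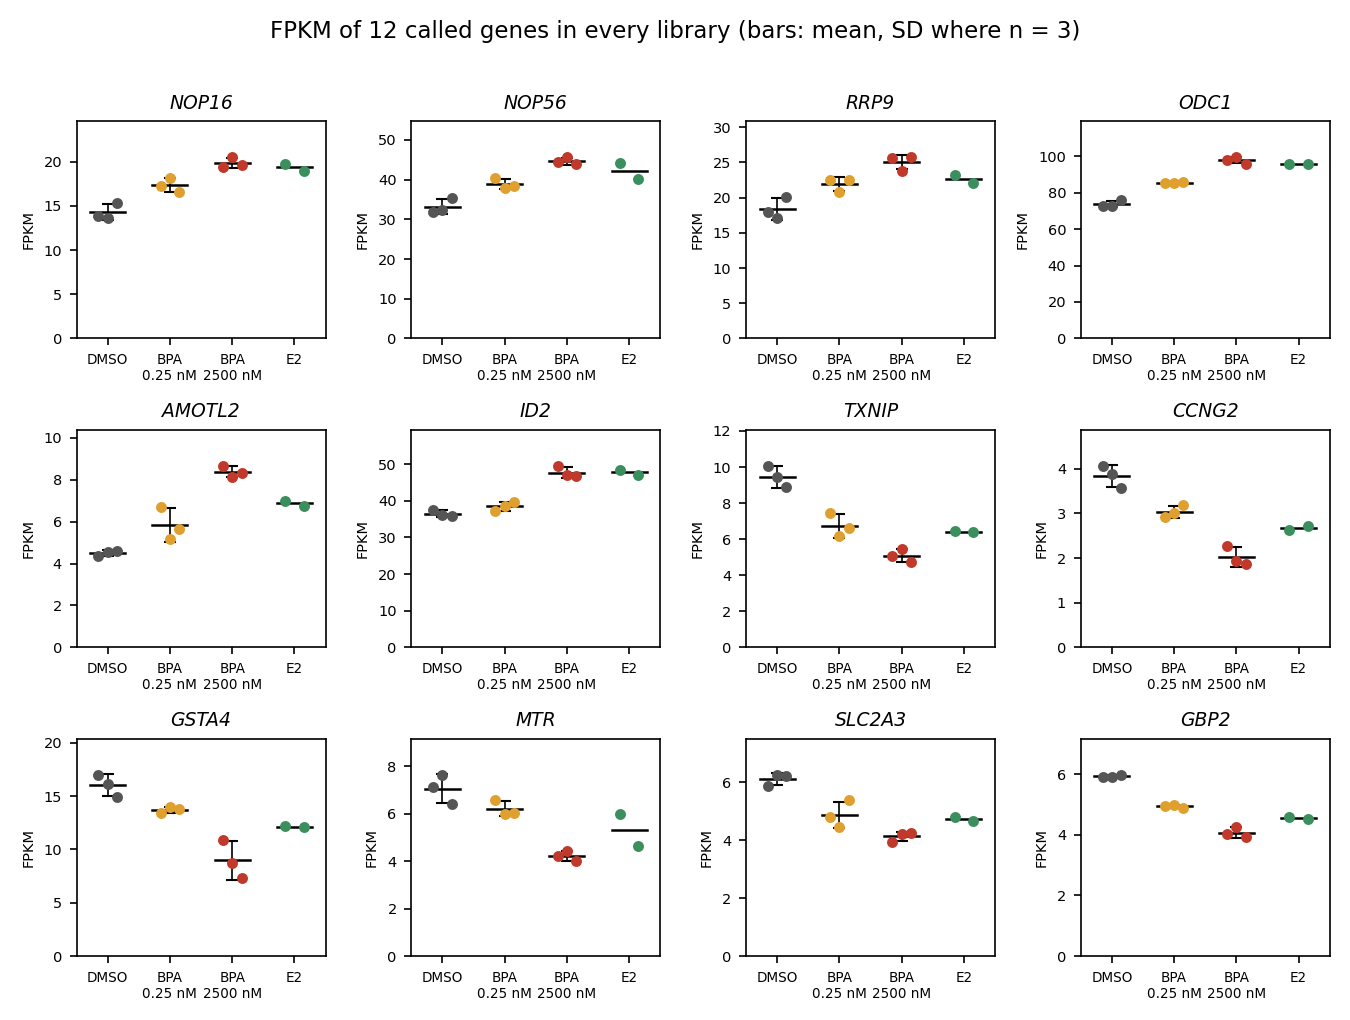
FPKM of 12 called genes in each library (points) of DMSO, BPA 0.25 nM, BPA 2500 nM and E2, with the group mean (line) and SD (bars, where n = 3), each panel from 0. In every panel, as at all 169 called loci, the 3 BPA 2500 nM libraries lie wholly above or wholly below the 3 DMSO libraries. ODC1 stands at 95.9 to 99.3 against 72.8 to 75.8 FPKM.

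The lower genes were led by KCTD10, a substrate adaptor of the CUL3 ubiquitin ligase (chr12:109448655-109477305, minus strand). It stood at 7.12, 7.09 and 7.30 FPKM in DMSO and 3.25, 3.79 and 3.73 with BPA 2500 nM, 49.9% lower in mean (log2 change -0.83 ± 0.055, adjusted p = 0.000752, the smallest of all tested loci). It was the only 1 of 28 tested adaptors of the BTB family that was called. The next by p, KLHL18, stood at 5.94 ± 0.0208 against 5.05 ± 0.0961 (adjusted p = 0.064). GSTA4, the glutathione transferase that detoxifies the lipid peroxidation product hydroxynonenal, fell from 17.0, 16.1 and 14.9 to 10.9, 8.74 and 7.31 FPKM (-0.78 ± 0.11, adjusted p = 0.0153). The 3 treated libraries of GSTA4 were spread widely but stayed below every control, and of 6 tested transferases it alone was called.

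TXNIP, which binds thioredoxin and takes glucose transporters off the cell surface (chr1:145992435-145996600, minus strand), stood at 10.1, 9.42 and 8.87 FPKM in DMSO and 5.05, 5.44 and 4.74 with BPA 2500 nM (-0.78 ± 0.073, adjusted p = 0.00281). CCNG2, an atypical cyclin linked to cell cycle arrest, went from 4.06, 3.89 and 3.56 to 2.27, 1.93 and 1.86 (-0.68 ± 0.066, adjusted p = 0.00281). Both are FOXO targets, and they were the 2 of 19 tested members of that list that were called, with 7 positive and a median of -0.068. RBL2 of the same list stood at 6.92 ± 0.323 against 8.38 ± 0.553 (adjusted p = 0.0748). PDCD4, an inhibitor of the helicase that unwinds messenger RNA for translation, fell from 4.24, 4.19 and 4.02 to 2.73, 2.79 and 2.65 FPKM (-0.47 ± 0.072, adjusted p = 0.0218). ARRDC4, an arrestin relative of TXNIP that responds to glucose through MondoA as TXNIP does, stood at 1.29 ± 0.0862 against 1.76 ± 0.0721 (adjusted p = 0.149).

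Genes of the hypoxia response mostly had negative changes. Of 25 tested genes, 22 were negative, 2 fell and 0 rose, beside 0.987% of all loci called lower. The median was -0.19 (-0.229 to -0.133 in the 19 alternative fits, not all of which could move it). The groups did not overlap at 14 lower members (17.3% of all loci) and 1 higher one (9.72%). Against the same DMSO libraries the list median was -0.127 with BPA 0.25 nM and -0.207 with E2. SLC2A3, a high-affinity glucose transporter, fell from 5.87, 6.25 and 6.21 to 3.95, 4.20 and 4.25 FPKM (-0.47 ± 0.062, adjusted p = 0.0121). P4HA1, which hydroxylates proline in collagen, fell from 24.8, 24.5 and 24.0 to 20.4, 20.2 and 20.9 (-0.24 ± 0.041, adjusted p = 0.0318). The next 4 by p did not pass: STC2 stood at 1.97 ± 0.33 against 3.03 ± 0.221, BNIP3 at 27.5 ± 1.46 against 32.4 ± 1.8, MXI1 at 0.627 ± 0.27 against 1.36 ± 0.0961 and WSB1 at 8.02 ± 0.84 against 11.8 ± 1.42 (adjusted p = 0.0507, 0.0637, 0.0736 and 0.1). The fit of the 6 libraries alone, and that without BPA 2500 nM replicate 1, called 0 members. 1 was called without BPA 2500 nM replicate 2, any 1 DMSO library or BPA 0.25 nM replicate 3, and 4 without either E2 library. MIR210HG, the host transcript of a microRNA known for its induction in hypoxia, is in no list and was named after its values were seen. It fell from 1.40, 1.25 and 1.68 to 0.59, 0.44 and 0.46 FPKM (-0.70 ± 0.12, adjusted p = 0.029). Glycolysis genes shared only SLC2A3 as a called member, with 17 of 23 negative and a median of -0.034.

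Genes of the interferon response had a negative change in 32 of 33 tested members, of which 3 fell and 0 rose, where 0.987% of all loci were called lower. The median was -0.13 (-0.182 to -0.104 in the 19 alternative fits, not all of which could move it). The groups did not overlap at 14 members, all of them lower (17.3% of all loci). GBP2, a guanylate-binding protein induced by interferon gamma, stood at 5.91, 5.90 and 5.97 FPKM in DMSO and 4.02, 4.27 and 3.92 with BPA 2500 nM (-0.45 ± 0.044, adjusted p = 0.00281). GBP1 fell from 9.98, 10.2 and 10.3 to 8.54, 8.27 and 8.63 (-0.23 ± 0.040, adjusted p = 0.0324). IFIT1, which binds viral RNA lacking cap methylation, fell from 15.4, 15.1 and 15.6 to 12.1, 12.1 and 12.3 (-0.31 ± 0.040, adjusted p = 0.0109). Its neighbours in the family were close to the threshold, with IFIT2 at 10.0 ± 0.561 against 12.9 ± 1.15, IFIT3 at 6.35 ± 0.38 against 7.61 ± 0.164 and IFIT5 at 12.9 ± 0.292 against 14.9 ± 0.413 (adjusted p = 0.0528, 0.0596 and 0.0602). The fit of the 6 libraries alone called 0 members. Those without BPA 2500 nM replicate 1 or 2 called 1, and the other fits without 1 DMSO or BPA library called 2. No gene of MHC class I presentation with a locus of its own was called, in 8 tested with a median of -0.011. TAP2 shares a called higher locus with HLA-DOB and is uncertain.

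**Figure D4:**
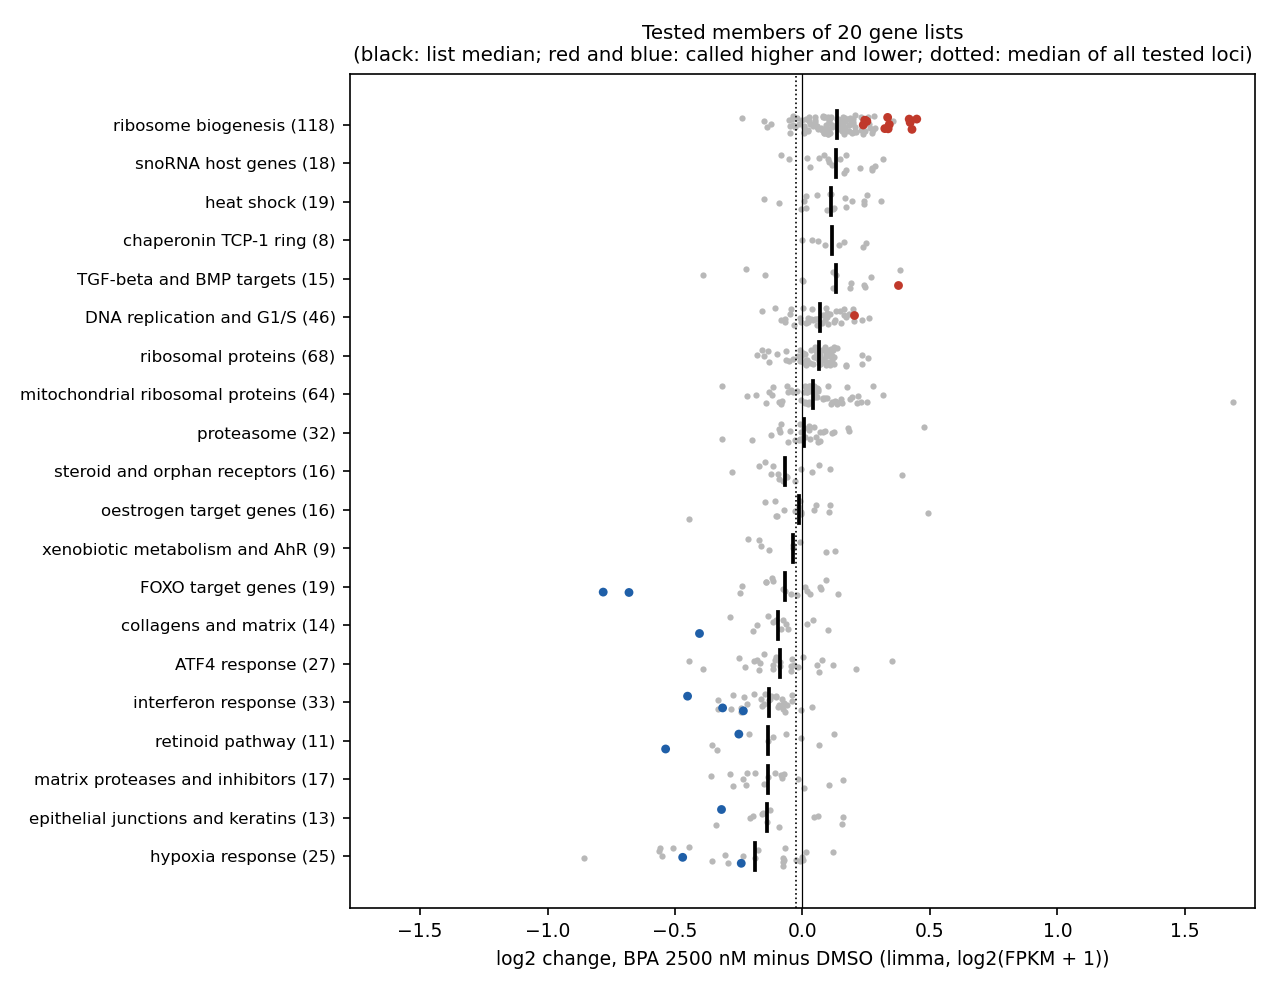
Log2 change (BPA 2500 nM minus DMSO, horizontal) of each tested member (points) of 20 gene lists (rows, with the number of tested members), with the list median in black, members called higher in red and called lower in blue, and the median of all tested loci dotted. Ribosome biogenesis has its median at 0.14 and 12 red points, and the hypoxia response its median at -0.19 and 2 blue points.

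The retinoid pathway had 2 of 11 tested genes called, both lower (0.987% of all loci were), and 9 negative (median -0.13). The count was 0 in the fit of the 6 libraries alone and when BPA 2500 nM replicate 1 or 2 or DMSO replicate 1 was dropped. It was 1 when BPA 2500 nM replicate 3, DMSO replicate 3 or any BPA 0.25 nM library was dropped, and with the libraries rescaled. Against the same DMSO libraries the list median was -0.078 with BPA 0.25 nM and -0.221 with E2. CRABP2, which carries retinoic acid to its nuclear receptor, fell from 7.03, 5.98 and 6.16 to 3.90, 4.06 and 4.30 FPKM (-0.54 ± 0.077, adjusted p = 0.0178). ALDH1A1, which makes retinoic acid from retinal, fell from 121, 109 and 119 to 101, 95.0 and 96.6 (-0.25 ± 0.049, adjusted p = 0.0471). ALDH1A1 is also an ovarian surface marker, and the summed FPKM of the 14 markers with a locus was 121.8 to 127.3 with BPA 2500 nM against 134.3 to 150.7 in DMSO, a sum made up mostly of ALDH1A1. The other 3 tested markers, KRT8, KRT18 and NR2F2, were not called (adjusted p = 0.515, 0.664 and 0.852). The retinoic acid-degrading CYP26A1 stood at 1.0 ± 0.266 against 1.55 ± 0.176 FPKM (adjusted p = 0.112).

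Matrix, junction and cytoskeletal genes fell singly. COL3A1, the fibrillar collagen III chain (chr2:188974320-189012746, plus strand), stood at 31.4, 30.3 and 32.1 FPKM in DMSO and 23.3, 23.0 and 23.8 with BPA 2500 nM (-0.40 ± 0.046, adjusted p = 0.00589). It was the only 1 of 14 tested matrix genes called, with 11 negative and a median of -0.095. COL3A1 is a fibroblast marker too, whose 8 markers with a locus summed to 77.6 to 88.9 FPKM against 79.4 to 103.7 in DMSO, while COL1A2 did not exceed 0.05 in any library. The part of other cells in this fall was not tested. The tight junction gene TJP3 (from 3.59 ± 0.192 to 2.68 ± 0.052), the actin-bundling FSCN1 (from 5.51 ± 0.427 to 3.66 ± 0.51), the Z-disc protein gene PDLIM3 (from 3.5 ± 0.11 to 2.38 ± 0.157) and caldesmon, CALD1 (from 5.58 ± 0.203 to 4.35 ± 0.275), also fell. DSG2, of desmosomes, stood at 7.39 ± 0.471 against 9.63 ± 0.672 (adjusted p = 0.0703) and CNN1, a smooth muscle calponin, at 4.29 ± 0.0862 against 5.67 ± 0.384 (adjusted p = 0.0602). Of 17 tested matrix proteases and inhibitors 14 were negative. The groups did not overlap at 10 that were lower (17.3% of all loci) and 1 that was higher (9.72%), and 0 were called, beside 1.43% of all loci. PLAUR, the urokinase receptor, stood at 3.17 ± 0.324 against 4.35 ± 0.487 (adjusted p = 0.079).

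The remaining large falls were scattered over functions. CALCRL, the receptor for adrenomedullin and CGRP (chr2:187341964-187448460, minus strand), went from 7.16, 7.25 and 7.34 to 4.82, 4.59 and 4.80 FPKM (-0.52 ± 0.049, adjusted p = 0.00281). CAMK2N1, an inhibitor of calmodulin-dependent kinase II, went from 6.33, 5.65 and 5.48 to 3.67, 3.61 and 3.56 (-0.56 ± 0.057, adjusted p = 0.00322). MGAT3, which adds the bisecting sugar to N-glycans, went from 2.64, 2.77 and 2.69 to 1.61, 1.63 and 1.62 (-0.50 ± 0.051, adjusted p = 0.00322). In all 3 genes no treated library came near the controls. HGF, the growth factor that binds MET, fell from 6.88 ± 0.54 to 4.57 ± 0.133 and the nucleotide excision repair gene XPA from 11.6 ± 0.991 to 8.25 ± 0.49. TUBB4A, a beta tubulin, fell by 0.53 on the log2 scale and the Notch receptor gene NOTCH3 by 0.30, while SCD, the main desaturase of fatty acids, fell only from 194 ± 2.06 to 171 ± 3.74 (-0.18 ± 0.033). SELENOP, the secreted selenium carrier, ATF3, a stress-induced transcription factor, MLLT11, TRAPPC6A, TCTE3, IGIP, PRR36, FIBIN and ZNF324B fell by 0.44 to 0.58 on that scale. Of these, SELENOP, ATF3, IGIP, TCTE3 and ZNF324B had a mean below 1 FPKM with BPA, and with a pseudocount of 0.1 their log2 changes were -0.93, -0.85, -0.99, -0.89 and -1.11. HNRNPA1P4, a pseudogene named after its values were seen, had the largest fall among called loci on the log2(FPKM + 1) scale (-1.24 ± 0.23, adjusted p = 0.043), and pseudogenes can share reads with their parent gene. RNU7-57P and LINC01232, also named after their values were seen, fell to a smaller share of the DMSO mean, 25.2% each against 35.1% for HNRNPA1P4. The RNU7-57P locus is very short (chr1:154338743-154338802), so its FPKM is uncertain.

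The oestrogen receptors were near 0. ESR1 did not exceed 0.01 FPKM in the 6 libraries, ESR2 0.02 and AHR, the dioxin receptor, 0.06. ESRRG, PGR and TFF1 were not analysed here for want of a locus by that name. GPER1, a G protein-coupled receptor for estradiol, stood at 1.58, 2.02 and 2.96 FPKM in DMSO and 1.96, 1.77 and 2.22 with BPA 2500 nM (-0.075 ± 0.21, adjusted p = 0.884), with full overlap. ESRRA, an orphan relative of the oestrogen receptors, was higher in every treated library (20.98, 19.2 and 18.8 against 12.3, 15.4 and 16.9) but did not pass (0.39 ± 0.11, adjusted p = 0.12). Of 16 tested oestrogen target genes 0 were called and the median was -0.012. Its sign changed in 4 of 19 alternative fits, not all of which could move it. GREB1 stood at 0.06 to 0.09 FPKM in all 6 libraries. CCND1, the G1 cyclin D1, stood at 33.4, 35.7 and 33.6 against 32.7, 34.2 and 32.0 (adjusted p = 0.661). MYC stood at 4.18, 3.86 and 4.20 against 2.95, 3.31 and 1.76, above every control but short of the threshold (0.49 ± 0.16, adjusted p = 0.171). CYP1A1 and CYP1B1, the usual readouts of AHR, stood at 0.837 ± 0.0814 against 1.13 ± 0.199 and 1.45 ± 0.132 against 1.74 ± 0.185 (adjusted p = 0.22 and 0.339).

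In several lists most changes had 1 sign and few or no members were called. Heat shock genes were positive in 16 of 19 (median 0.11), among them HSPD1 at 316 ± 13.0 against 276 ± 15.2 FPKM and DNAJB1 at 42.9 ± 1.66 against 34.5 ± 2.64. The TCP-1 ring, which folds actin and tubulin, was positive in 7 of 8 (median 0.12), with CCT3 at 132 ± 3.14 against 111 ± 6.23 (adjusted p = 0.0655). Cytosolic ribosomal proteins were positive in 54 of 68 (median 0.066) and mitochondrial ones in 48 of 64 (median 0.042). Of 31 genes known as MYC targets 27 were positive, with ODC1 alone called, TFRC at 42.1 ± 0.965 against 29.2 ± 5.15 and PRMT5 at 45.5 ± 2.63 against 36.5 ± 1.15 (adjusted p = 0.0518 and 0.0552). DNA replication genes were positive in 36 of 46 (median 0.069), and MCM7, a subunit of the replicative helicase, rose from 56.3 ± 1.56 to 64.8 ± 1.6. The ATF4 response was negative in 20 of 27 (median -0.089), with ASNS at 11.4 ± 0.0889 against 13.6 ± 1.02 (adjusted p = 0.0926). Over all tested loci 5083 changes were positive and 6766 negative.

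The test between the doses asks which of these differences were larger at 2500 nM than at 0.25 nM. Of the 11853 loci, 6 (0.0506%) differed at an adjusted p under 0.05, and 930 (7.85%) had an unadjusted p under 0.05. All 6 were also called against DMSO, and both comparisons use the same BPA 2500 nM libraries. Of the 169 loci called against DMSO, 163 had a change of the same sign with BPA 0.25 nM, beside 8921 of all tested loci. Both changes use the same DMSO libraries. KCTD10 was lowest at the high dose, with 6.85, 7.13 and 7.0 FPKM at 0.25 nM and 6.73 and 7.08 with E2 beside 3.25 to 3.79 at 2500 nM. Its log2 difference between doses was -0.80 ± 0.055 (adjusted p = 0.00107), and it stayed called in all 11 fits without 1 library (highest adjusted p 0.0145). COL3A1 stood at 32.0, 30.4 and 33.0 FPKM at 0.25 nM and 29.3 and 27.5 with E2 (difference between doses -0.43 ± 0.046, adjusted p = 0.0266). Its call was lost when replicate 1 or 3 of either BPA dose was dropped (highest adjusted p 0.124).

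The other 4 loci depended on more of the libraries. CALCRL stood at 6.32, 6.23 and 6.87 FPKM at 0.25 nM and CAMK2N1 at 5.33, 5.08 and 5.50, both lower at 2500 nM (-0.38 ± 0.049 and -0.45 ± 0.057). CCN1 stood at 26.6, 25.2 and 27.5 and the tRNA locus MT-TF at 35.9, 37.0 and 37.3, both higher at 2500 nM (0.36 ± 0.046 and 0.50 ± 0.058). Adjusted p was 0.0411 for CALCRL, CAMK2N1 and CCN1 and 0.0347 for MT-TF. CALCRL and CCN1 were called in none of the 11 fits without 1 library, CAMK2N1 in the 1 that dropped DMSO replicate 1, and MT-TF in the 3 that dropped replicate 1 or 3 of DMSO or replicate 2 of BPA 2500 nM. CCN1 and MT-TF stood at 32.5 and 32.3 and at 57.6 and 55.5 FPKM with E2. The count of loci that differed between doses was 2 when either E2 library or replicate 3 of either BPA dose was dropped. It was 3 with DMSO replicate 2 dropped and 10 with BPA 2500 nM replicate 2 dropped. NOP16, ODC1, AMOTL2 and TXNIP were not among the 6: the difference between doses was 0.18 ± 0.055 for NOP16 (adjusted p = 0.465), 0.19 ± 0.034 for ODC1 (0.139), 0.46 ± 0.076 for AMOTL2 (0.122) and -0.35 ± 0.073 for TXNIP (0.259). Missing the threshold does not show that the doses act alike on these genes.

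**Figure D5:**
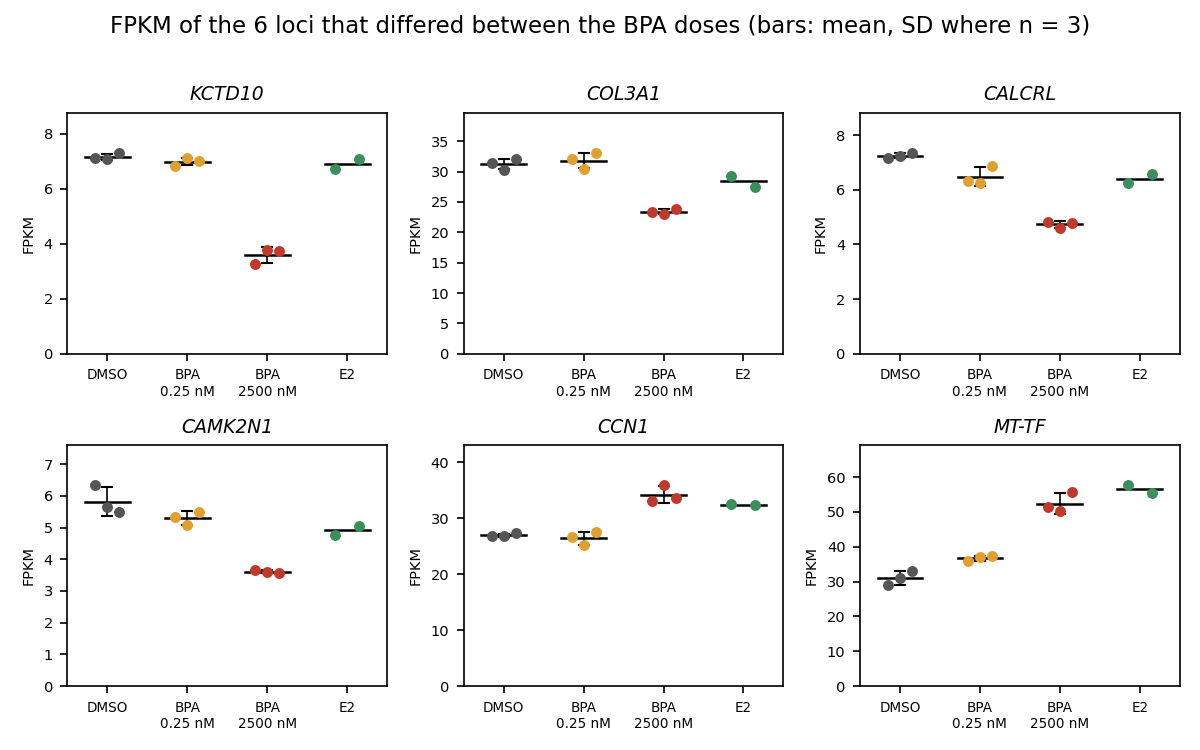
FPKM in each library (points) of the 6 loci that differed between BPA 2500 nM and BPA 0.25 nM, with group means (lines) and SD (bars, where n = 3), each panel from 0. KCTD10 stands at 3.25 to 3.79 FPKM with BPA 2500 nM and at 6.73 to 7.30 in all other libraries.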

How the data were processed

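The authors deposited 1 FPKM value per locus and library with 2 decimals, per the file headers. Per the submitters' processing notes, which give no versions and name hg19, the tools were HISAT, UMI-tools, StringTie and edgeR. The files' coordinates are those of GRCh38 (74.9% of 14142 Ensembl loci have the start and end of GENCODE 29). No source used here states strand handling, so antisense and joined loci are uncertain. Of 12 labelled samples 11 were analysed. log2(FPKM + 1) was fitted with limma 3.58.1 (R 4.3.3, trend and robust, statmod 1.5.0, 7 residual degrees of freedom), two-sided, adjusted over 11853 loci; the median SE was 0.083. Precision comes from the spread between libraries alone.

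The members and the 64 gene lists were chosen with earlier results of these data known. Of 1799 list genes, 1578 had a locus of their own, 167 a joined locus and 54 none. Named were the 25 largest called changes in each direction at loci of 1 coding gene without overlap. Clone and antisense symbols were skipped. So were the coding genes C1orf54 (log2 change -0.54) and C17orf58 (-0.49), both called lower, for the form of their symbols. Also named were every called list member with up to 4 further members by p, a receptor panel and the cell type markers. A gene named outside this rule (also HNRNPM, DHX40, RAB29, PAK1IP1, LINC02438, SLC17A5, PNRC1 and SNORD12C) was chosen after its values were seen. Promoters come from RefSeq (GRCh38.p14), matched by symbol for 40 of 43 higher and 80 of 100 lower genes. Figures were drawn with matplotlib 3.10.9. Alternatives changed the pseudocount, filter, scaling, libraries, moderation and replicate block. A few genes covered by the rule are not reported here.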

Additional observations from a re-analysis of the deposited data

How the results depend on the processing

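Against the 169 loci called with BPA 2500 nM, 55 were called with no filter on low values, 107 with a mean FPKM of at least 5, 13 with only the groups compared (10 shared with the 169), 284 with no E2 libraries, and 32 to 284 without 1 library. A pseudocount of 0.1, rescaling, and no trend or robust setting gave 145, 174 and 165. Between the doses, where 6 loci differed, 3 did with only the groups compared, 2 with no E2 libraries, 1 with no trend or robust setting, and 2 to 10 without 1 library. Replicates of the same number did not deviate together (r = -0.009, 0.001 and 0.042 for the 3 pairs). That cannot decide whether they were handled together, which the labels do not say. With the replicate block 37 loci were called against DMSO and 3 between doses. Of 73 named called genes none turned direction in any alternative. Without 1 library that was fixed in advance, because their groups do not overlap. Without 1 DMSO or BPA library 18 to 44 kept their call. It was kept by 8 with only the groups compared, 27 with the replicate block and 32 with no filter. With 7 residual degrees of freedom, and read depth unknown, small changes of low loci are the least certain.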

Other observations

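2 uncalled loci varied widely from library to library. IER2, an immediate early gene, stood at 8.18, 3.25 and 2.53 FPKM in DMSO, 18.2, 19.4 and 19.3 with BPA 2500 nM, 2.02, 2.49 and 3.16 with BPA 0.25 nM, and 19.1 and 2.34 in the E2 libraries (log2 change against DMSO 1.95 ± 0.57, adjusted p = 0.132). MRPL49, of the mitochondrial ribosome, stood at 6.81, 9.96 and 7.12 in DMSO, 28.8, 28.6 and 25.5 with BPA 2500 nM, 12.6, 7.99 and 28.6 with BPA 0.25 nM, and 29.1 and 24.0 with E2 (1.69 ± 0.35, adjusted p = 0.0542). They were picked after their values were seen. Zinc finger genes, a large family of low level, were called at 1 of 304 tested loci (ZNF324B), beside 1.43% of all tested loci.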
